A study of Mus musculus with 4 samples.

Results

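The genes described here encode the D-type cyclins (Ccnd1, Ccnd2, Ccnd3), the kinases they switch on (Cdk4, Cdk6) and 5 inhibitors of cyclin-dependent kinases (Cdkn1a, Cdkn1b, Cdkn1c, Cdkn2b, Cdkn2c), 10 genes in all. Their members on the array were all non-control probes whose RefSeq accession maps to 1 of these symbols. This gave 13 probes of 41174, covering 9 of the 18217 genes named on the array: 3 probes for Ccnd2, 2 each for Cdk6 and Cdkn1b, and 1 for each of the other 6. Ccnd1, which encodes cyclin D1, was not analysed here. All 13 probes passed the filter on dim signals, which kept 23497 probes.

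RNA came from microvascular smooth muscle cells of male C57BL6 mice that lack Rap1a by their labels. This gene encodes a small G protein related to Ras. Cells transduced with a RapCA shuttle vector (4 RNA samples) were compared with cells transduced with an empty shuttle vector (4 RNA samples), and both kinds of cell therefore share the labelled Rap1a deletion and the exposure to virus. What RapCA stands for is not spelled out in the labels, while the series title speaks of knockout and rescue. All cells were grown with 10% serum, received virus overnight without serum when plated, and recovered for 48 h in 0.5% serum. Each of 4 two-colour Agilent arrays carried an RNA of each kind, RapCA in Cy3 and vector in Cy5, with no dye swap, so dye and vector cannot be told apart. The 4 arrays are labelled biological replicates, with no word on separate cultures or animals, so p-values measure the spread between these arrays, which may be technical.

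D cyclins are made when growth signals reach a resting cell. They bind CDK4 or CDK6, and the complex phosphorylates the retinoblastoma protein RB, which releases E2F factors to transcribe genes of DNA replication. INK4 inhibitors (p15 from Cdkn2b, p18 from Cdkn2c) bind CDK4 and CDK6 and keep the cyclin out. CIP/KIP inhibitors (p21 from Cdkn1a, p27 from Cdkn1b, p57 from Cdkn1c) block CDK2 complexes and can also help to assemble cyclin D with its kinase. In vascular smooth muscle this switch is known for its part in the move from a quiescent, contractile state to division after injury.

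Several measures of the whole series bear on every value below. The Rap1a probe was lower in the RapCA-labelled channel on 4 of 4 arrays, with a log2 ratio of RapCA-labelled over vector-labelled channel of -1.06 ± 0.44 (SD, n = 4; limma adjusted p = 0.00204). This probe was well above background on 4 of 4 arrays in each channel, although all cells are labelled as lacking Rap1a. The probe of its relative Rap1b was higher on 4 of 4 arrays, at 0.80 ± 0.54 (SD, n = 4; limma adjusted p = 0.0134). The labels do not say which Rap gene the RapCA vector carries, and where the Rap1a probe lies relative to the deletion is not known. These probes therefore do not settle the labels, and every direction here rests on the dye assignment as labelled. Replicate 1 stood apart: across probes, its ratios had correlations of 0.69 to 0.78 with replicates 2 to 4, which had 0.93 to 0.98 among themselves. Probes well above background made up 57.7% to 62.9% of each RapCA-labelled channel, and of the vector-labelled channel 51.3% on replicate 1 and 60.1% to 61.9% on the others. Of 10 smooth muscle markers, 8 were well above background on all arrays in each channel, while Des and Myocd were so in neither. Of those 8, 4 were higher in the RapCA-labelled channel and none lower, Tagln and Mylk by 2.13 and 1.55 on the log2 scale. The summed signals of the 10 were 318491 to 346197 in the RapCA-labelled channel, against 146921 to 195837 in the vector-labelled channel. Fibroblast markers were higher in the RapCA-labelled channel at 6 of 7 tested. Col14a1, 1 of these 6, passed the filter only through that channel. It was well above background there on 4 arrays, against 0 in the vector-labelled channel. Lum was the 1 marker not well above background in either channel. Summed signals over the 8 markers were 53565 to 63999 in the RapCA-labelled channel, against 7976 to 11249 in the vector-labelled channel. Of 4 pericyte markers tested, 3 were higher, Notch3, Pdgfrb and Cspg4 by 2.79, 1.78 and 0.88. Kcnj8 was lower at -0.40, and passed only through the vector-labelled channel, with 4 arrays well above background against 3. Rgs5, Abcc9 and Higd1b were not well above background on all arrays in either channel. Summed signals over the 7 markers were 27969 to 31871 in the RapCA-labelled channel, against 9272 to 13048 in the vector-labelled channel. Of 8 endothelial markers, 5, Pecam1 and Cdh5 among them, were not well above background on all arrays in either channel. Vwf and Kdr were well above it in each channel and were lower, at -2.03 and -0.75. Tek was higher at 1.16, but passed only through the RapCA-labelled channel, with 4 arrays well above background against 2. The leukocyte gene Ptprc and the epithelial gene Epcam were not above background in that sense, nor were 3 more leukocyte and 2 more epithelial markers. Cd3e, Csf1r and Krt19 were above it in each channel, at 0.11, 0.02 and -1.25 (limma adjusted p = 0.469, 0.942 and 0.00253). Krt8 was lower at -1.04, but passed only through the vector-labelled channel, with 4 arrays well above background against 0. Lyz2 was higher at 0.52, but passed only through the RapCA-labelled channel, with 4 arrays against 0. Summed signals were 806 to 819, 614 to 644 and 993 to 1377 for the endothelial, leukocyte and epithelial lists in the RapCA-labelled channel, against 1014 to 1186, 542 to 673 and 1703 to 5059 in the vector-labelled channel. The part of these marker differences in the results below was not tested. A ratio from bulk RNA cannot tell fewer cells of a type from less RNA per cell.

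Among the 9 genes, each taken at its brightest probe, Ccnd2, Ccnd3, Cdkn1c and Cdkn2b were higher in the RapCA-labelled channel, Cdk6 and Cdkn1a were lower, and Cdk4, Cdkn1b and Cdkn2c did not pass. So both D cyclins measured and 2 of the 5 inhibitors were higher, while 1 of the kinases and 1 inhibitor were lower. Over probes, 6 of 13 were higher and 2 lower at a Benjamini-Hochberg adjusted p under 0.05 in limma, fitted on all 23497 probes. In the same fit 49.6% of all probes were called, 26.4% higher and 23.2% lower, and by brightest probe 53.9% of 12388 genes. The members' 8 of 13 probes (61.5%) and 6 of 9 genes (66.7%) are to be read against those shares, and do not mark the group out. Channel levels did not overlap at 8 of 13 member probes (61.5%), against 42.7% of all probes with levels. The median log2 ratio of the 9 genes was 0.22, against 0.02 over all genes tested, with a range of -0.98 to 1.86. Without replicate 1, 7 member probes were higher and 2 lower, and 67.0% of all probes were called.

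**Figure D1:**
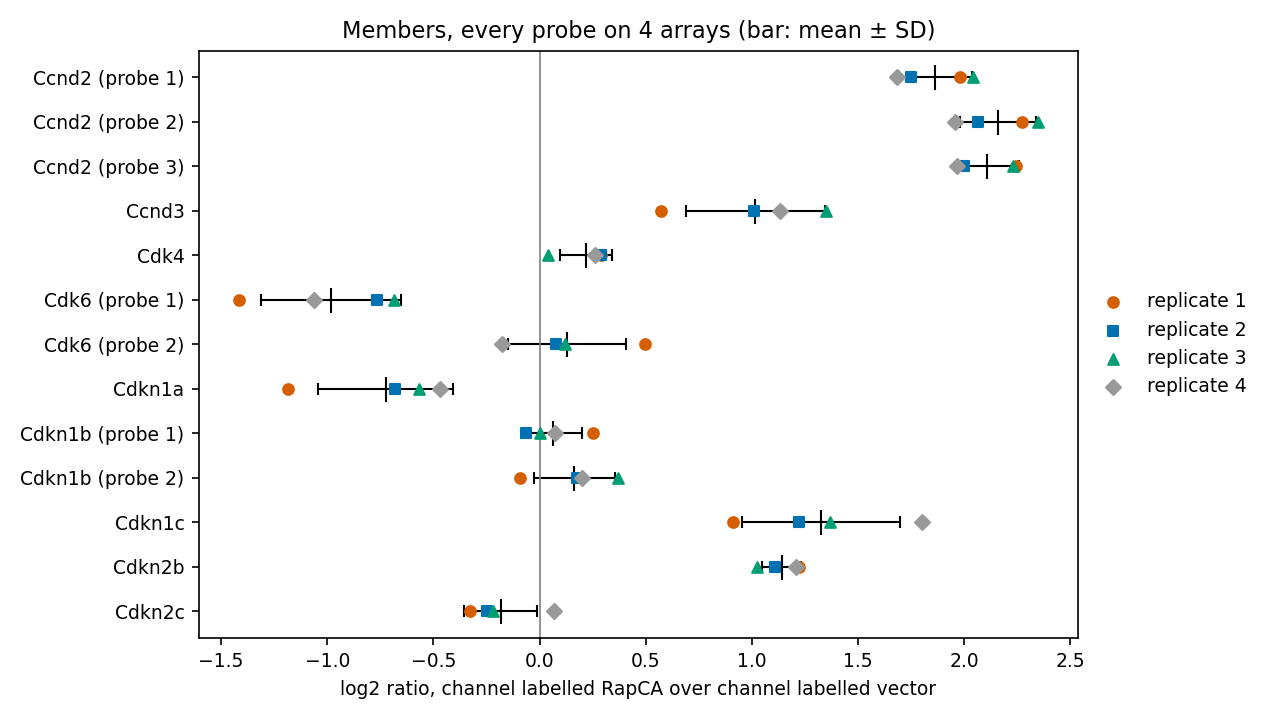
Log2 ratio of RapCA-labelled over vector-labelled signal (x axis) for each of the 13 probes (rows) on replicates 1 to 4 (symbols), with black bars for mean ± SD over 4 arrays. The 3 Ccnd2 probes lie between 1.68 and 2.35 on every array, and replicate 1 is the lowest of the arrays for Ccnd3, Cdk6 probe 1, Cdkn1a and Cdkn1c.

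Ccnd2, which encodes cyclin D2, had the largest difference of the group and was called higher at all 3 probes. Probe A_52_P53906 had log2 signals of 15.75, 16.11, 16.23 and 15.88 in the RapCA-labelled channel on replicates 1 to 4, against 13.78, 14.36, 14.19 and 14.20 in the vector-labelled channel. After scaling, the channels were far apart on every array, and the lowest RapCA-labelled value lay above the highest vector-labelled value. Its log2 ratio was 1.86 ± 0.18 (SD, n = 4), a fold of 3.64, with a limma adjusted p of 3.83e-05. The other probes, A_51_P433228 and A_52_P514391, gave log2 ratios of 2.16 ± 0.18 and 2.11 ± 0.15, folds of 4.47 and 4.32. With each array centred on its median in place of the intensity-dependent loess fit, the 3 ratios were 1.30, 1.60 and 1.57 and all passed. Before any scaling, probe A_52_P53906 had background-subtracted signals of 47438.5, 51539, 48873 and 43966.5 units in the RapCA-labelled channel. The vector-labelled channel had 13594.5, 31650.5, 28273 and 25906 units. The order was the same on every array with smaller gaps, so the size given for Ccnd2 rests in part on the scaling.

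Ccnd3, which encodes cyclin D3, was also higher, by less and with more spread between arrays. Its probe A_51_P238448 had log2 signals of 14.58, 14.40, 14.66 and 14.62 in the RapCA-labelled channel, against 14.01, 13.39, 13.31 and 13.49 in the vector-labelled channel. After scaling, the RapCA-labelled values were close together and replicate 1 had the highest vector-labelled value. The ratio of 0.57 on replicate 1 was below the 1.01, 1.35 and 1.13 of replicates 2 to 4. The mean log2 ratio was 1.02 ± 0.33 (SD, n = 4), a fold of 2.02, with an adjusted p of 0.00106. Median centring gave 0.55 with an adjusted p of 0.0177, so the size of the Ccnd3 difference depends on the scaling while the call does not. Before any scaling, background-subtracted signals were 21318, 17060.5, 17535 and 18922 units in the RapCA-labelled channel. The vector-labelled channel had 15289.5, 16015.5, 15273.5 and 15515 units, the same order on every array with smaller gaps.

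Within each array, the Ccnd2 log2 ratio exceeded that of Ccnd3 on 4 of 4 arrays, by 1.41, 0.74, 0.69 and 0.55. The mean difference was 0.85 ± 0.38 (SD, n = 4). An exact two-sided sign-flip permutation test gave p = 0.125, the smallest that 4 arrays allow, and p = 0.125 after adjustment over the 5 such differences computed among the members. These differences are therefore descriptions of direction on each array.

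**Figure D2:**
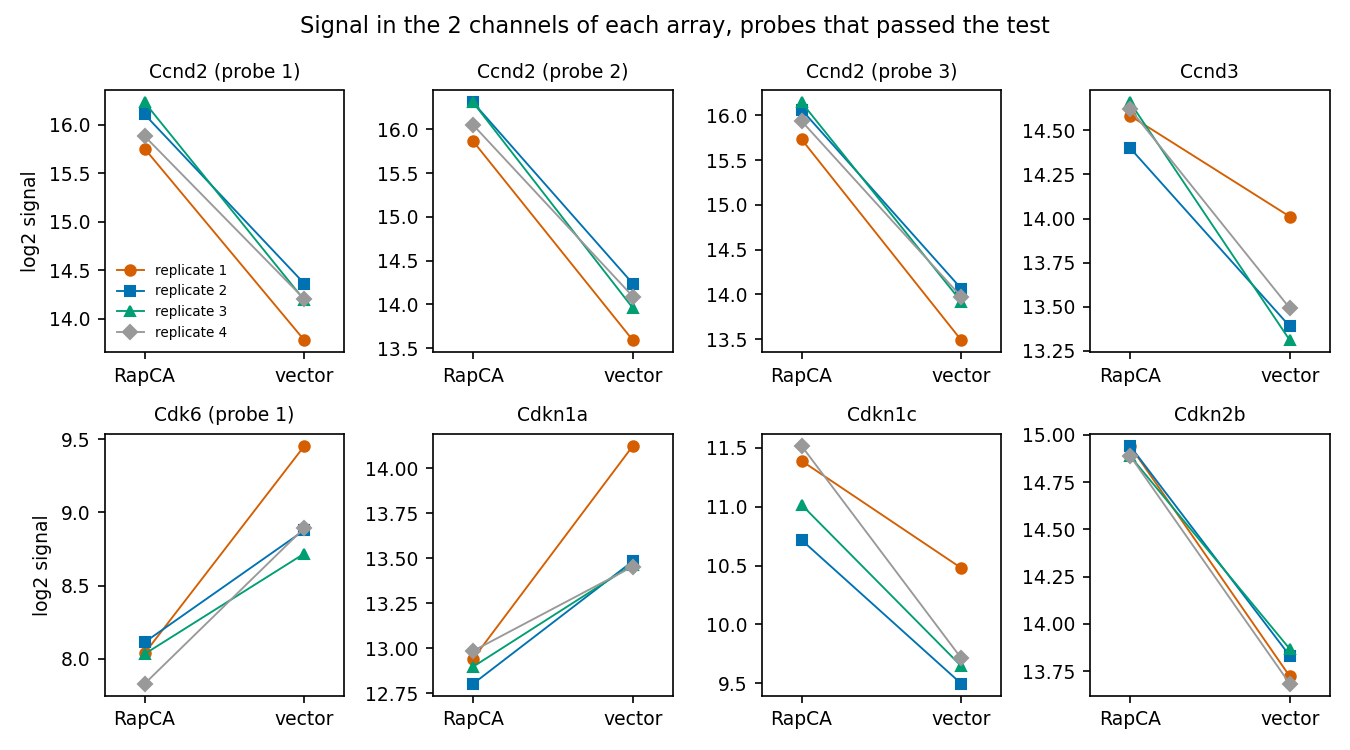
Log2 signal after loess and between-array scaling (y axis, own range in each panel) in the RapCA-labelled and vector-labelled channels of each array (joined points), for the 8 probes that passed the test. The channels do not overlap in any panel, and the scaled vector-labelled value of replicate 1 is the highest of the 4 for Ccnd3, Cdk6 probe 1, Cdkn1a and Cdkn1c.

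The kinase gene Cdk4 did not pass. Probe A_51_P437027 had log2 signals of 14.34, 14.18, 14.03 and 14.16 in the RapCA-labelled channel, against 14.05, 13.89, 13.99 and 13.90 in the vector-labelled channel. The channels overlapped, with replicate 3 the array where they differed least. The log2 ratio was 0.22 ± 0.12 (SD, n = 4; adjusted p = 0.109), with a 95% interval of -0.02 to 0.46. Under median centring the Cdk4 ratio was -0.24, so no direction is given. A difference in either direction as large as that of Ccnd3 lies outside the interval.

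The Cdk4 start had the most matches of the 10 member starts searched for sequence motifs, 4 of them to 1 element. In the 250 bases before that start (RefSeq, GRCm38.p6, chr10:127063285-127063534, plus strand), shown because 4 copies of the E-box CACGTG, the element bound by MYC and MAX, stand close together, capitals mark these copies and a GC box GGGCGG on the other strand:
Cdk4: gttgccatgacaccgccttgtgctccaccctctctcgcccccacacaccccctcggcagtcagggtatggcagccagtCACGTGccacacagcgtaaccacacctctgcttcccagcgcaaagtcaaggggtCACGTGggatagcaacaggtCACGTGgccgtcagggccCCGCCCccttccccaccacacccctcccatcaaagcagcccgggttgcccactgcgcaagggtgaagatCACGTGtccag
The E-boxes start at -172, -118, -98 and -11 relative to the start. An E-box was found before 6.02% of 32851 RefSeq starts, and 4 or more before 7 of them (0.0213%), the Cdk4 start included. The cut of 4 equals the Cdk4 count, so this share describes the start shown and tests nothing. Such a share was computed for no other motif. Myc, singled out after its values were seen, had log2 ratios of -0.37, -0.40 and -0.49 at its 3 probes, all called lower with adjusted p of 0.0175, 0.0135 and 0.0134. The brightest of these probes was not called without replicate 2 (-0.41, adjusted p = 0.0706) or without replicate 3 (-0.36, adjusted p = 0.110). Mycn was lower at -1.33. The related genes Mxd1, Mxd4, Mnt and Max, named after their values were seen, had 1.42, 1.43, 0.45 and 0.10 at their brightest probes. All but Max were called higher, Mxd1 at 1 of its 2 probes. The part of these genes in the Cdk4 values was not tested. The match describes these letters and names no site in use.

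Cdk6 was measured by a pair of probes that did not give the same result. Probe A_52_P417489 had log2 signals of 8.04, 8.11, 8.03 and 7.83 in the RapCA-labelled channel, against 9.45, 8.88, 8.72 and 8.89 in the vector-labelled channel. The RapCA-labelled values were lower on all 4 arrays without overlap, and after scaling the gap was widest on replicate 1. Before scaling, vector-labelled signals less background were 358, 634, 551 and 574 units on replicates 1 to 4. The log2 ratio was -0.98 ± 0.33 (SD, n = 4; adjusted p = 0.00127), 1.98-fold lower in the RapCA-labelled channel. Probe A_51_P388310 was dim, with background-subtracted signals of 32, 42, 30.5 and 22.5 units in the RapCA-labelled channel, against 7.5, 71, 56.5 and 58 units in the vector-labelled channel. It was well above background on 4 arrays in the RapCA-labelled channel and on 3 in the vector-labelled channel, replicate 1 being the exception. Its log2 ratio was 0.13 ± 0.28 (adjusted p = 0.442; 95% interval -0.17 to 0.43), which does not overlap the interval of -1.32 to -0.65 of the brighter probe. The fall of Cdk6 therefore rests on 1 of 2 probes. The 250 bases before the Cdk6 start held an E-box at -220 and a TATA box TATAAA at -103. A TATA box was present before 12.4% of all starts. The log2 ratio of the brighter probe was below that of Cdk4 on 4 of 4 arrays, with a mean difference of -1.20 ± 0.42 (SD, n = 4; exact sign-flip permutation p = 0.125).

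The CIP/KIP genes went in different directions. Cdkn1a, which encodes p21 and is a classic target of p53, had log2 signals of 12.94, 12.80, 12.90 and 12.99 in the RapCA-labelled channel at probe A_51_P363947, against 14.12, 13.48, 13.46 and 13.45 in the vector-labelled channel. The values were lower on all 4 arrays in the RapCA-labelled channel and did not overlap, and after scaling replicate 1 had the largest gap. Its vector-labelled value stood out only after scaling. Background-subtracted signals in that channel were 15263.8, 17476, 17114.8 and 15165.2 units on replicates 1 to 4. The log2 ratio was -0.73 ± 0.32 (SD, n = 4; adjusted p = 0.00437), 1.65-fold lower, and -1.10 under median centring.

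Trp53, which encodes p53 and was singled out after its values were seen, had log2 ratios of -0.65 ± 0.31 (adjusted p = 0.00649) at its brighter probe and -0.18 ± 0.29 (adjusted p = 0.303) at the other. The call at the brighter probe was lost when the channels were treated as separate samples, without the array as a block (adjusted p = 0.0769). RefSeq gives Cdkn1a a pair of starts on chromosome 17. The 250 bases before the upstream one (GRCm38.p6, chr17:29090729-29090978, plus strand) are shown because they hold 2 matches to the p53 decamer, the repeated unit of the p53 binding element, in capitals:
Cdkn1a: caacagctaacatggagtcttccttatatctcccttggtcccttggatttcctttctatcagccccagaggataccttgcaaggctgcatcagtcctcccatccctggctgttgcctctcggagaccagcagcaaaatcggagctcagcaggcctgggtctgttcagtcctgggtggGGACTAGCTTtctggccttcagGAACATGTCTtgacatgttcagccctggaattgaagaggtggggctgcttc
The downstream start held none in its 250 bases but had 2 GC boxes. A decamer was found before 7.13% of all starts, so a single match is not rare. The share of starts with 2 or more was not computed. Only exact matches were searched for, and no binding was measured.

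Cdkn1b, which encodes p27, did not pass at either probe. Probe A_51_P146126 had log2 ratios of 0.25, -0.06, 0.00 and 0.07 on replicates 1 to 4, and probe A_51_P169173 had -0.09, 0.18, 0.37 and 0.20. Signs were mixed within both probes and the channels overlapped. Their means were 0.07 ± 0.13 (adjusted p = 0.628; 95% interval -0.18 to 0.31) and 0.16 ± 0.19 (adjusted p = 0.261; -0.10 to 0.42). The first had -0.14 under median centring and -0.00715 with array quality weights, and the second passed without replicate 1 at 0.25 (adjusted p = 0.0266) and with array quality weights at 0.29. A change of Cdkn1b as large as those of Cdkn1a or Cdkn1c lies outside both intervals.

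Cdkn1c, which encodes p57 and is an imprinted gene, was higher. Probe A_51_P339540 had log2 signals of 11.39, 10.72, 11.02 and 11.52 in the RapCA-labelled channel, against 10.48, 9.50, 9.65 and 9.71 in the vector-labelled channel. The channels did not overlap, although replicate 1 came close to doing so with the highest vector-labelled value after scaling. Before scaling its vector-labelled signal was the lowest, at 836 units less background, against 1050, 1145 and 1068.5 on replicates 2 to 4. The log2 ratio was 1.33 ± 0.37 (SD, n = 4; adjusted p = 0.000465), a fold of 2.51, and 1.14 under median centring. On each of the 4 arrays it exceeded the ratio of Cdkn1a, by 2.05 ± 0.17 on average, and that of Cdkn1b, by 1.26 ± 0.44 (exact sign-flip permutation p = 0.125 for each). The difference between Cdkn1c and Cdkn1a varied little, from 1.90 to 2.27.

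Of the INK4 pair, Cdkn2b was higher and Cdkn2c did not pass. Cdkn2b, which encodes p15 and is known to be induced by TGF-beta, had log2 signals of 14.94, 14.94, 14.89 and 14.89 in the RapCA-labelled channel at probe A_52_P498241, against 13.72, 13.83, 13.87 and 13.68 in the vector-labelled channel. It had the smallest SD of the 13 probes, and the channels were more than 1 log2 unit apart on every array. The log2 ratio was 1.14 ± 0.09 (SD, n = 4; adjusted p = 0.000138), a fold of 2.20. Median centring reduced the ratio to 0.65 and the call was lost (adjusted p = 0.0502). Before any scaling, background-subtracted signals on replicates 1 to 4 were 27342, 24352, 20085 and 22872 units in the RapCA-labelled channel, against 12555, 22050, 22482.5 and 18014 units in the vector-labelled channel. On replicate 3 the unscaled order of the channels was thus the other way round, and the size given for Cdkn2b rests on the correction of the dye trend at bright spots.

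The Cdkn2b start is shown for its cAMP response element TGACGTCA, a CREB binding motif, in capitals, which begins at -46 (RefSeq, GRCm38.p6, chr4:89311033-89311282, minus strand):
Cdkn2b: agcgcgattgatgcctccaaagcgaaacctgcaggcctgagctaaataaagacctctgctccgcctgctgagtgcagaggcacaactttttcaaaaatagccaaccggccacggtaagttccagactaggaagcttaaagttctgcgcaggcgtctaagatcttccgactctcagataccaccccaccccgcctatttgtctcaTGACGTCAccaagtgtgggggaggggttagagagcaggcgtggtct
The element was present before 1.55% of all starts and before no other member start. E2F motifs (TTTCCCGC, TTTGGCGC, TTTCGCGC or TTTGCCGC on either strand) were found before 1.86% of all starts and before none of the 10 starts of the 7 members in the table. No motif overlapped another in these windows. Ccnd1, Ccnd2 and Cdkn1c had no entry.

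Cdkn2c, which encodes p18, had log2 signals of 11.57, 11.36, 11.23 and 11.38 in the RapCA-labelled channel at probe A_51_P513719, against 11.90, 11.61, 11.45 and 11.32 in the vector-labelled channel. The channels overlapped, and the array with the opposite sign was replicate 4, at 0.07. The log2 ratio was -0.18 ± 0.17 (SD, n = 4; adjusted p = 0.201), with a 95% interval of -0.44 to 0.07. It passed with array quality weights, at -0.21 (adjusted p = 0.00891). The Cdkn2c ratio was below that of Cdkn2b on 4 of 4 arrays, with a mean difference of -1.32 ± 0.17 (SD, n = 4; exact sign-flip permutation p = 0.125).

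The scaling mattered for the bright members. The median ratio of all probes was -0.14 with median centring and 0.01 with loess, and 40.1% of called probes were then higher, against 53.3% with loess. Of the members 5 probes were then higher and 2 lower, where 27.9% of all probes were called, and each of the 8 called probes kept its sign. With the ratios of the scanner software, which have their own dye correction, 6 probes were higher and 2 lower, as with loess.

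**Figure D3:**
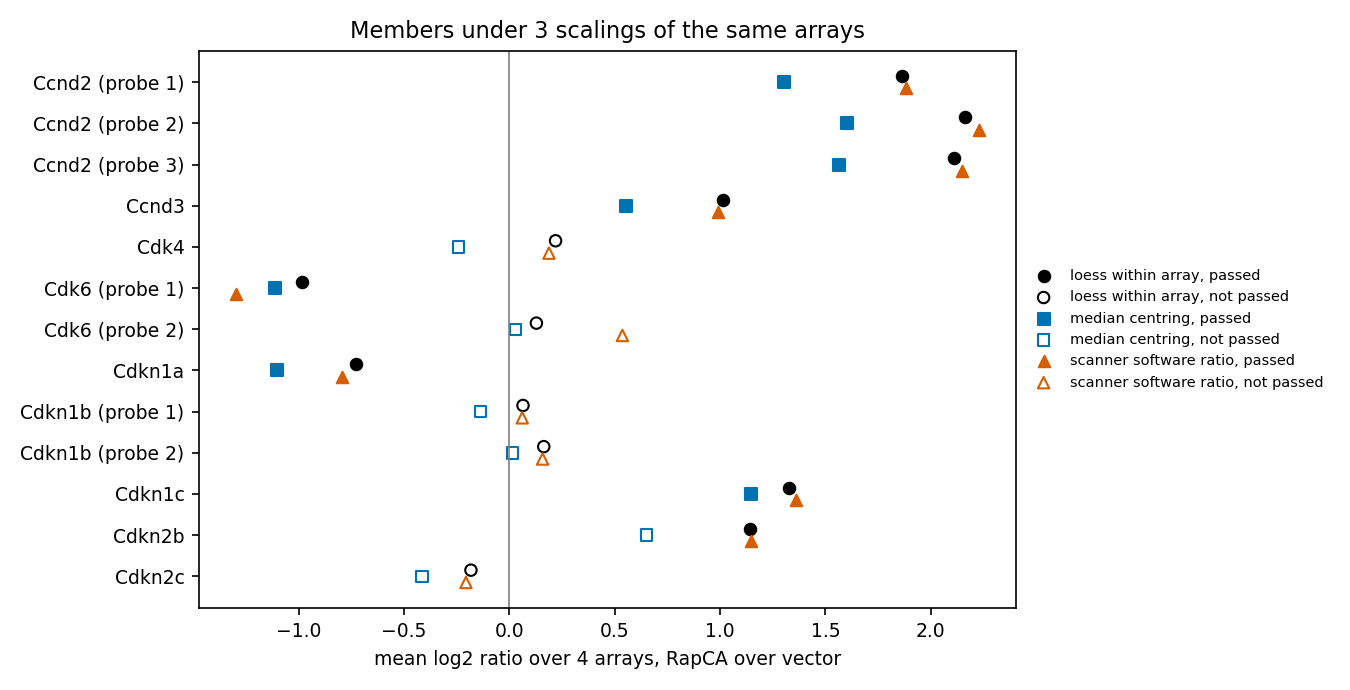
Mean log2 ratio over 4 arrays (x axis) for each probe (rows) with loess (circles), median centring (squares) and the scanner software's ratio (triangles), filled where the adjusted p was under 0.05. Median centring lies left of loess at all 13 probes, and Cdkn2b loses its call there at 0.65.

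The genes that act with or downstream of the members were described by 6 lists of 99 genes, of which 96 were tested, by the brightest probe of each. Of the 13 genes of the RB and E2F axis, 7 were lower and none higher, with a median log2 ratio of -0.53. Without replicate 1, where 67.0% of all probes were called, 8 were lower and 1 higher. The activator E2f2 had -2.14 ± 0.21 and the repressors E2f8, E2f7 and E2f6 had -1.74 ± 0.33, -1.62 ± 0.54 and -0.96 ± 0.36. Rb1 itself, the substrate of the CDK4 and CDK6 complexes and named after its values were seen, had -0.09 ± 0.29 (adjusted p = 0.605). Against this stand the 28.9% of all genes called higher and 24.9% called lower by brightest probe. Counts in the other lists below are to be read against the same shares.

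Genes of the cyclin E, cyclin A and CDK2 arm, which takes over from the D cyclins, were lower at 5 of 7 tested and higher at none, with a median of -1.32. Ccne1 and Ccne2, which encode the E cyclins, had log2 ratios of -1.70 ± 0.21 and -2.07 ± 0.62. The phosphatase gene Cdc25a had -1.32 ± 0.22, Ccna2 had -1.32 ± 0.66, and Cdk2, named after its values were seen, had -0.49 ± 0.11. Cdk2 just missed the threshold without replicate 3 (-0.47, adjusted p = 0.05001) and had -1.01 on the scanner ratios. The arm and the E2F list thus had calls in the direction opposite to Ccnd2 and Ccnd3. All 8 proliferation markers were lower too, with a median of -1.40 and summed signals of 37896 to 54422 in the RapCA-labelled channel, against 110496 to 135899 in the vector-labelled channel.

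Of 6 genes for activation and assembly of CDK4 and CDK6, 2 were higher and 2 lower, where 53.9% of all genes were called. The uncalled 2 were Ccnh at -0.22 ± 0.32, with 1 of its 3 probes called lower, and Hsp90ab1 at -0.07 ± 0.49. Cdk7, the CDK-activating kinase, had 0.83 ± 0.15 and its partner Mnat1 0.41 ± 0.22, while the chaperone gene Hsp90aa1 had -1.79 ± 0.72 and the kinase cochaperone Cdc37 -0.35 ± 0.07. These calls were less even between probes and settings: the other Cdk7 probe had 0.17 and was not called, the other Cdc37 probe was called higher at 0.51, and median centring left Cdk7 and Mnat1 uncalled (adjusted p = 0.124 and 0.640). Cdc37 and Mnat1 were also uncalled on the scanner ratios (adjusted p = 0.256 and 0.0719), and without replicate 2 (0.123 and 0.0866) or replicate 3 (0.106 and 0.0845).

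Most genes for turnover of D cyclins and p27 did not pass, 13 of 17, with 3 higher, 1 lower and a median of 0.14. Over all genes, 53.9% were called by brightest probe. The higher ones were Ddb1, a subunit of CUL4 ubiquitin ligases, at 1.11 ± 0.07, the small heat shock protein gene Cryab at 1.68 ± 0.44, and Fbxo4, an F-box protein that acts with Cryab on cyclin D1, at 0.63 ± 0.09. Median centring left Fbxo4 uncalled (adjusted p = 0.195). Cks1b, a cofactor in the degradation of p27, was lower at -0.78 ± 0.17. Without replicate 1 the list had 7 higher and 4 lower, in a setting where 67.0% of all probes were called, and its median was -0.14 with median centring.

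Regulators of the members' transcription were mixed, with 8 higher and 6 lower of 30 and a median of 0.03, which was -0.18 with median centring. The 14 of 30 called stand against 53.9% of all genes by brightest probe. Smad3, a transducer of TGF-beta signals, had 1.41 ± 0.15, the Notch target Hes1 2.19 ± 0.29 and the cytokine-responsive factor Stat3 1.30 ± 0.05, while Mycn had -1.33 ± 0.11. Among the other cyclins and cyclin-dependent kinases, 8 of 23 were lower and 4 higher, with a median of -0.18. The shares over all genes were 24.9% lower and 28.9% higher. Ccnf, which encodes cyclin F, had -1.92 ± 0.23, Ccnb1 of the mitotic cyclins -1.57 ± 0.30 and the phosphatase gene Cdkn3 -0.95 ± 0.20. Cdk16 was higher at 0.87 ± 0.09, and so were Cdk5, Ccni and Ccng2 at 1.03, 0.98 and 1.00, these 3 named after their values were seen. With median centring only Cdk5 of these 4 passed.

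**Figure D4:**
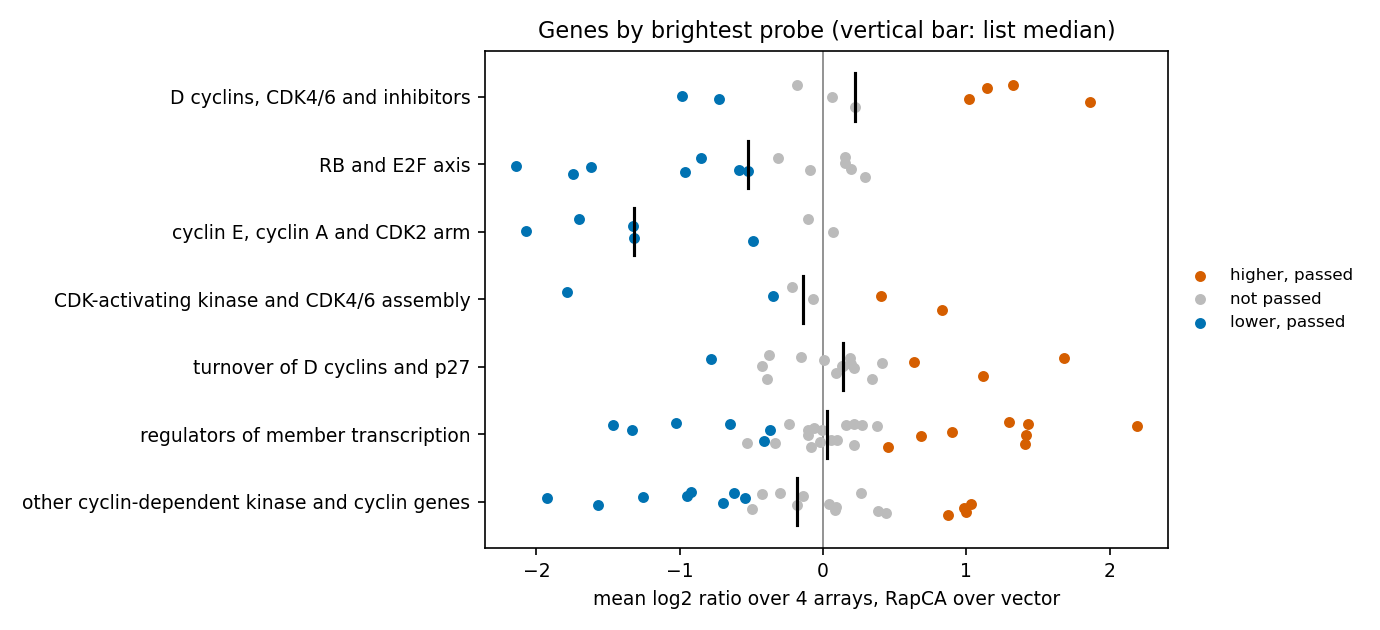
Mean log2 ratio over 4 arrays (x axis) of each gene tested, by brightest probe, for the members (top row) and 6 lists of related genes, coloured by direction where the adjusted p was under 0.05 and grey otherwise. Vertical bars are list medians, from -1.32 for the cyclin E, cyclin A and CDK2 arm to 0.22 for the members.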

How the data were processed

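Gene expression was measured on 4 two-colour Agilent arrays on 1 slide, so slide cannot be examined as a batch. The authors read the scans with Feature Extraction, whose version is 10.7.3.1 per the file headers, while the submitters' processing notes give 10.9. The deposited intensity values are unnormalized medians over the pixels of a spot, with the local background beside them, per the file headers. The deposited log10 ratios, in the scanner files and the series table, are of Cy5 over Cy3 after Feature Extraction's background, detrending and dye steps, per the file headers. Values in the series table lay within 5e-05 of those in the scanner files over 40929 probes, with a median of 0 in each column.

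Background was corrected with normexp (offset 50), ratios were normalized by loess within arrays with control spots at no weight, 94 to 137 outlier spots per array were left out of 43379, and spots of a probe were averaged. No spot was saturated. Ratios are log2 of Cy3 (labelled RapCA) over Cy5 (labelled vector). Levels are log2 signals after loess and Aquantile scaling, and are not compared between probes. The filter kept a probe if, in 1 channel or both, it was well above background on every array. Each probe's mean over arrays was set against 0 in limma (lmFit, eBayes; at least 3 arrays per probe; calls at 0.05 after Benjamini-Hochberg adjustment over all probes). The ± values are SDs over arrays, and intervals are limma's, at 95%. The number of arrays limits the precision. A RefSeq table matched by accession gave symbols to 64.8% of probes, and its build is not that of the array files, so it gave names only. Promoter sequences are RefSeq's, on that table's build, and 6 motifs were searched for on both strands of the 250 bases before each start. They were chosen with the ratios known, the p53 decamer after the longer p53 element had been searched for without a match.

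The members, lists and rules were chosen with earlier results of these data known. Named were all member probes, Rap1a, Rap1b, up to 4 called genes with the smallest p in each of the lists of related genes, markers, and the genes said to be named after their values were seen. The planned difference between Ccnd2 and Ccnd1 was not computed. The steps were tested on simulated ratios with the median SD of the real probes and 200 of 23497 probes changed: the calls found 28%, 74%, 98% and 98% of the changes of log2 0.5, 1, 2 and 4, beside 3 false ones. The simulation had few changed probes and the same spread on every array, unlike the real data. Alternatives covered scaling, background correction, filters, outlier spots, variance models, array weights, pairing of channels and each array left out. R 4.3.3, limma 3.58.1 and statmod 1.5.0 were used, with Python 3.11.15, pandas 2.3.3 and matplotlib 3.10.9.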

Additional observations from a re-analysis of the deposited data

Results flagged for a closer look

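Among 43 member probes and named genes, the log2 ratio of 1 array lay far from the other 3 in 2 cases, by Dixon's test at 95%, which chance gives in about 1 of 20 groups. For Cdk4, replicate 3 had 0.0387 against 0.26 to 0.29 on the others. For Mnat1, replicate 1 had 0.74 against 0.24 to 0.32.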

How the results depend on the processing

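Of the 8 called member probes, 7 kept their direction and their call under all 15 alternatives, and Cdkn2b did so except with median centring (0.65, adjusted p = 0.0502). With median centring 6546 probes were called, 2624 of them higher, and 9 genes of the related lists were higher, against 17. That setting reversed Cdk4 (-0.24) and Cdkn1b probe 1 (-0.14), and gave mean differences of 2.25 for Cdkn1c minus Cdkn1a and -1.06 for Cdkn2c minus Cdkn2b. Array quality weights called 17946 probes, 8756 of them lower, with 29 listed genes higher and 45 lower, and gave Cdkn1b probe 1 a ratio of -0.00715. Leaving out 1 array gave 7907 to 15738 called probes and 3523 to 7664 lower, the lowest without replicate 3 and the highest without replicate 1. With the channels as separate samples, without the array as a block, 43.7% of probes were called, and the same count of member probes was higher (6) and lower (2). The causes of these changes were not tested. The absence of a dye swap and dim signals, as at Cdk6 probe 2, limit what the arrays can show.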
